A study of Homo sapiens with 6 samples.

Results

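The genes described here encode the enzymes of sterol and fatty acid synthesis and the sterol regulatory element-binding protein (SREBP) system that controls them. They were chosen by name from textbook pathways, with no measured value in the rule, though earlier results of these data were known. Their levels were compared between AKIT and E8 medium. The list held 41 names, of which 39 had a row among the 23346 genes of the table. The other two, SC4MOL and SC5D, are alternative symbols of genes listed as MSMO1 and SC5DL. RNA was sequenced from KhES-1 cells, a human embryonic stem line in common use, cultured either in AKIT or in Essential 8 (E8), the control medium. All dishes carried a laminin fragment, also named E8, at 0.5 µg per square cm. As background, AKIT relies on small molecules that inhibit GSK3, DYRK kinases and calcineurin, where E8 relies on the growth factors FGF2 and TGF-beta. The series has 3 samples per medium, and 3 AKIT and 2 E8 libraries were compared, since E8 replicate 3 was not analysed here. All libraries come from a single cell line. Nothing in the labels tells whether replicates came from separate cultures, so p-values reflect the spread among the samples at hand, and that spread may be technical.

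Cholesterol is built from acetyl-CoA through mevalonate, the isoprenoid diphosphates, squalene and lanosterol. Fatty acids are built from the same acetyl-CoA through malonyl-CoA and are then elongated and desaturated. SREBPs are made as precursors in the membrane of the endoplasmic reticulum, where SCAP escorts them and the INSIG proteins hold the complex back while sterols are plentiful. When sterols fall, the precursors move to the Golgi, are cleaved there, and the released factors raise transcription of the genes of both pathways and of INSIG1 itself. Proliferating cells such as pluripotent stem cells draw on both pathways for new membrane.

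Levels are RPKM, reads scaled by gene length and library depth, so that levels can be set against each other between genes. In bulk RNA, fewer cells of a type and less RNA per cell cannot be told apart. Where values of single libraries follow, those of AKIT are in the order of replicates 1, 2 and 3 and those of E8 in the order of replicates 1 and 2. Log2 differences subtract the E8 value from the AKIT value of log2(RPKM + 1), a scale on which the change of low genes comes out too small, and stand ± their standard error. A gene "rose" or "fell" where its Benjamini-Hochberg adjusted p in limma was under 0.05, with the fit and the adjustment over the 14776 genes whose mean reached 0.5 RPKM.

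The values rested on 16242864 to 23263095 reads per library. AKIT replicate 2 stood apart on the second principal component (17.2% of the variance), while the first (66.5%) separated the media. Of 12 markers of pluripotent cells, all passed the filter, 0 rose and 2 fell (SOX2 and PODXL), beside 8.22% and 11.7% of all genes. Their summed level was 4108 to 4282 RPKM in AKIT and 4855 to 4932 RPKM in E8. Markers of other cell types were summed in the same way. For 11 fibroblast and mesenchyme genes the summed level was 207 to 270 RPKM in AKIT and 346 to 348 RPKM in E8. Of these genes, 8 were tested: 0 rose, and COL1A1, THY1 and PDGFRB fell. Without AKIT replicate 3, however, 3 rose and 1 fell, beside 4.62% and 7.55% of all genes. Against that sum, COL3A1 was at 5.63, 2.15 and 0.141 RPKM in AKIT and 0.0413 and 0 RPKM in E8, and LUM at 5.81, 1.83 and 0.0244 RPKM and at 0 in both E8 libraries. For 11 trophoblast and amnion genes the summed level was 24.5 to 37.6 RPKM in AKIT and 28.8 to 30.6 RPKM in E8. Of these, 7 were tested: 0 rose, and KRT7 and TFAP2A fell. However, 2 rose without AKIT replicate 2 (14.5% of all genes) and 1 without AKIT replicate 3 (4.62%). For 10 neuroectoderm genes it was 198 to 216 RPKM in AKIT and 216 to 229 RPKM in E8. Only 3 of the 10 were tested, of which 0 rose and 0 fell, also 0 at an unadjusted p under 0.05 in limma. Of the trophoblast and amnion genes, HAND1 was at 6.31, 2.79 and 1.78 RPKM in AKIT and 1.04 and 0.921 RPKM in E8, and CGA and TFAP2C also had every AKIT library above E8. Endoderm and liver markers summed to 6.91 to 11.8 RPKM in AKIT and 4.02 to 4.05 RPKM in E8 over 13 genes. Of these, 2 were at 0 in every library and 4 were tested, among which FOXA2 rose and 0 fell. The part of these differences in the results below was not tested.

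Of the 39 genes, 37 passed the filter, and 17 of the 37 rose in AKIT while 0 fell. Over all genes tested, 8.22% rose and 11.7% fell. The median log2 difference was 0.50 over the 37 genes and -0.01 over all genes tested. Levels were above those of both E8 libraries in all 3 AKIT libraries for 26 of the 37 genes, beside 25.8% of all genes tested, and below both in 0 of the 37, beside 28.6%. The differences were of moderate size, from -0.08 (ACACB) to 0.95 (INSIG1), and the ratio of mean levels reached 2.01 (MSMO1). At an unadjusted p under 0.05 in limma, 23 of the 37 were higher and 0 lower. Among all 14776 genes tested, 5320 had such a p, in either direction. Voom on recovered reads called 18 of the 37 higher and 0 lower, beside 8.37% and 12.9% of all genes.

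The calls rested on both E8 libraries. With E8 replicate 1 or 2 left out, 0 of the 37 genes passed in limma, where 0.969% and 0.963% of all genes tested rose, and 18 and 17 of the 37 were higher at an unadjusted p under 0.05. Of the 37, 12 rose without AKIT replicate 3 (4.62% of all genes), 14 without AKIT replicate 1 (5.35%) and 21 without AKIT replicate 2 (14.5%), and 0 fell in any of these fits. With no filter on low values 13 genes rose and 0 fell (4.89% and 7.63% of all genes), and the calls of IDI1, INSIG1, ACSS2 and SCD ended.

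**Figure D1:**
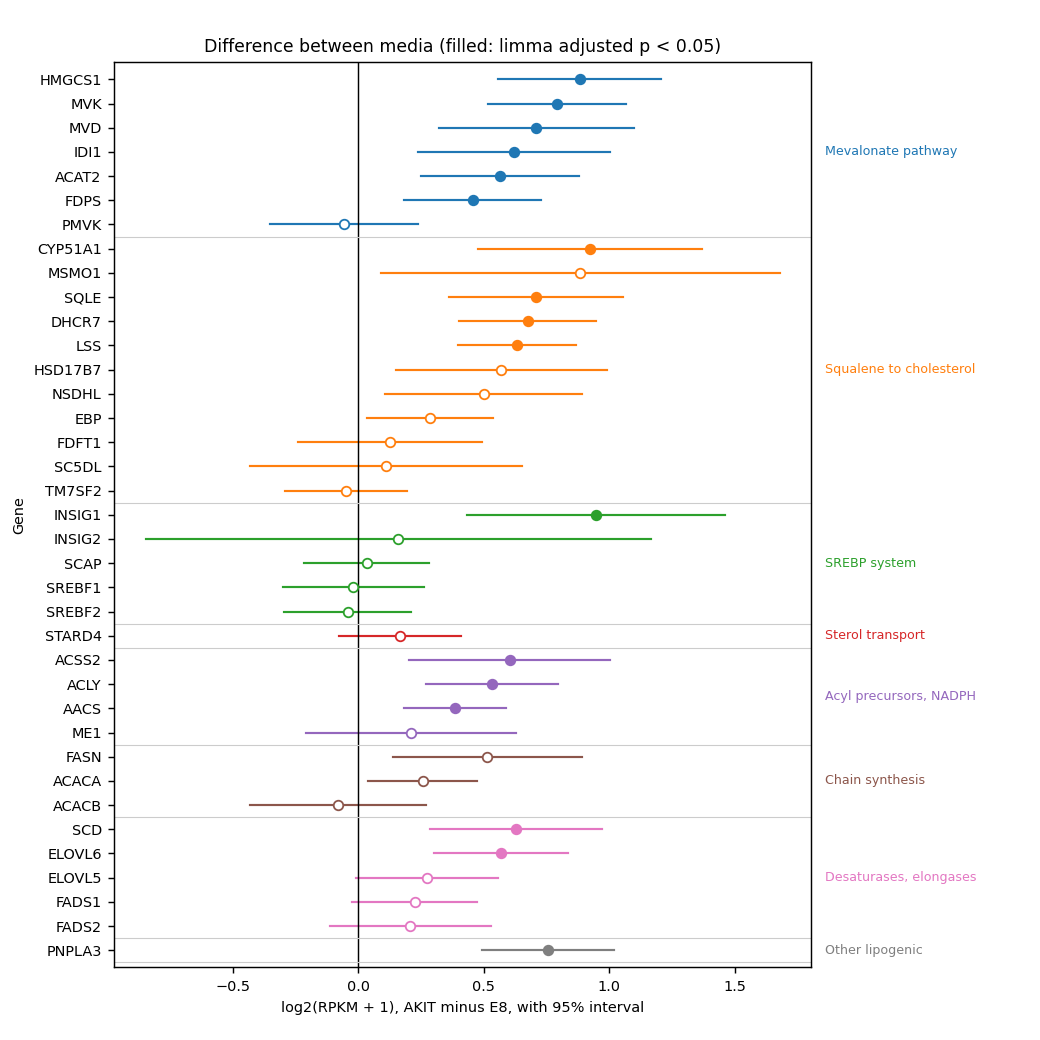
Difference between media for the 37 tested genes, grouped by role: the x axis is the log2(RPKM + 1) value of AKIT minus that of E8, points are limma estimates, lines their 95% intervals, and filled points passed an adjusted p of 0.05. The 17 filled points all lie to the right of 0, and the estimates run from -0.08 to 0.95.

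The promoters are shown because 17 of the 37 genes rose and 0 fell. SREBPs bind sterol regulatory elements and E-boxes, usually beside sites of NF-Y (the CCAAT box) or Sp1 (the GC box). RefSeq promoters (GRCh38.p14, a later build than that of the RPKM values) were used for 34 of the 39 genes, with 46 starts in all. Member genes on 1 chromosome were left out, a limit that the shares over all promoters do not have, and other members had no promoter entry. Not searched were ACAT2, SQLE and PNPLA3, which rose, and FDFT1 and FASN, which did not pass. The 250 bases before each start were searched on both strands, matches that overlap included. A CCAAT box (CCAAT) was present before 28 of the 46 starts, or 60.9%, against 32.6% of the promoters of all tested genes and 32.0% of all 35116 promoters. A GC box (GGGCGG) was present before 38, or 82.6%, against 63.3% and 42.6%. The E-box CACGTG was present before 5, or 10.9% (8.11% and 6.34%), and a sterol regulatory element of the form TCACNCCAC before 1, or 2.17% (0.917% and 0.883%). By gene, a CCAAT box was found in 11 of the 14 searched genes that rose and in 13 of the other 20. For the GC box these counts were 14 and 16, for the E-box 1 and 3, and for the sterol regulatory element 0 and 1. A match is a description of the sequence, and no match says only that these letters are not in this window.

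The promoters of 4 genes that rose (HMGCS1, MVK, INSIG1 and SCD) and of 2 that did not pass (SREBF2 and TM7SF2) are given 5′ to 3′ up to the base before the start. They were picked after their values were seen. Capitals mark matches to the CCAAT box on either strand, the E-box and the sterol regulatory element.
HMGCS1, chr5:43313413-43313662, minus strand: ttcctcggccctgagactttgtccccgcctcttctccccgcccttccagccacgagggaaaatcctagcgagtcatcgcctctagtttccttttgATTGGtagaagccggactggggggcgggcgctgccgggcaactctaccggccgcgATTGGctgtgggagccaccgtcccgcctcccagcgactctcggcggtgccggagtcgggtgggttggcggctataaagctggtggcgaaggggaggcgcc
MVK, chr12:109573544-109573793, plus strand: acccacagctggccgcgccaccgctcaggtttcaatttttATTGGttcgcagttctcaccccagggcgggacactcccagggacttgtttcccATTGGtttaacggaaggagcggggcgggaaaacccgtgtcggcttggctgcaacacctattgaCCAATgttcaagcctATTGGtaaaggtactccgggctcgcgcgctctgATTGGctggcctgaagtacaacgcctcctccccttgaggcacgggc
INSIG1, chr7:155297628-155297877, plus strand: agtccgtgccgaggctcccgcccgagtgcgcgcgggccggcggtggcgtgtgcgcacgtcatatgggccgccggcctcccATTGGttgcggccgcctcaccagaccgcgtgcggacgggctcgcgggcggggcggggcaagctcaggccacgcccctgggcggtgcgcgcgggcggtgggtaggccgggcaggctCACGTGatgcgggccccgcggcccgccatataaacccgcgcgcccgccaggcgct
SCD, chr10:100346983-100347232, plus strand: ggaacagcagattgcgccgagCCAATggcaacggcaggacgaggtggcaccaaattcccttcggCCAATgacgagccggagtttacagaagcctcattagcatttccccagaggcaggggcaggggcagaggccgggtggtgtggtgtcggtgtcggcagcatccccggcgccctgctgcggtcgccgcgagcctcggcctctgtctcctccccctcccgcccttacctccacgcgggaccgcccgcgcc
SREBF2, chr22:41832855-41833104, plus strand: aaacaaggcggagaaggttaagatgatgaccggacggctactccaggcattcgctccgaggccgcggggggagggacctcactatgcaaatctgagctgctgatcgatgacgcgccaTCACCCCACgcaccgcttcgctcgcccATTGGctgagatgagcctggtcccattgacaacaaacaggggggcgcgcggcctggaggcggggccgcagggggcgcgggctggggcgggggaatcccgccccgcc
TM7SF2, chr11:65111622-65111871, plus strand: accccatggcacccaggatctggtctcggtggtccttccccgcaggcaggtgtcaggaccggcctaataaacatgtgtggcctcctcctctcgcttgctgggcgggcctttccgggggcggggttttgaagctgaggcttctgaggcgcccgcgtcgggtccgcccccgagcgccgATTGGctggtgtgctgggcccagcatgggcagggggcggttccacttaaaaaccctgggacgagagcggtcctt
MVK had 5 CCAAT boxes, between 210 and 42 bases before its start. In INSIG1 the E-box lay 55 to 50 bases before the start. Among the searched starts, the sole match to the sterol regulatory element was that of SREBF2, 133 to 125 bases before its start. SREBF2 itself did not pass the test. For HMGCS1 the more upstream of 2 starts is shown.

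Of the 7 enzymes of the mevalonate pathway, 6 rose and 1, PMVK, did not pass. HMGCS1, the synthase that makes HMG-CoA, stood at 187, 141 and 157 RPKM in AKIT and at 91.1 and 82.8 RPKM in E8. The lowest AKIT library was thus 141 against a highest E8 value of 91.1 RPKM, and the groups did not overlap. The log2 difference was 0.88 ± 0.14 (limma adjusted p = 0.00749), with a ratio of means of 1.86. MVK, mevalonate kinase, was the least abundant enzyme of the pathway and had the same pattern at 7.92, 6.95 and 8.08 RPKM in AKIT and 3.88 and 4.10 RPKM in E8. The AKIT libraries lay close together here, and the log2 difference was 0.79 ± 0.12 (limma adjusted p = 0.00614, ratio of means 1.92).

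MVD, the decarboxylase that makes isopentenyl diphosphate, was at 37.4, 26.3 and 26.2 RPKM in AKIT and at 17.8 and 17.6 RPKM in E8, with AKIT replicate 1 apart from the other two. Its log2 difference was 0.71 ± 0.16 (limma adjusted p = 0.0267). IDI1, the isomerase of that product, was at 79.9, 54.8 and 62.1 RPKM in AKIT and at 43.8 and 39.9 RPKM in E8 (0.62 ± 0.16). For both genes replicate 1 was again the highest library, and no AKIT library fell into the E8 range. ACAT2, a cytosolic thiolase that joins acetyl-CoA units at the head of the pathway, was at 50.0, 40.5 and 53.5 RPKM in AKIT and at 33.1 and 30.8 RPKM in E8 (0.56 ± 0.13). FDPS, which makes farnesyl diphosphate, was at 48.9, 41.9 and 52.4 RPKM in AKIT and at 34.0 and 34.8 RPKM in E8 (0.46 ± 0.12). For these genes AKIT replicate 3 was the highest and AKIT replicate 2 the lowest AKIT library, still above E8. The calls of ACAT2 and FDPS ended without AKIT replicate 1 or 3, and that of IDI1 without AKIT replicate 3. PMVK, phosphomevalonate kinase, the step between MVK and MVD, was at 14.5, 11.4 and 13.5 RPKM in AKIT and at 13.3 and 14.0 RPKM in E8. Both E8 values lay within the AKIT range, and the log2 difference was -0.06 ± 0.12 with a 95% interval from -0.35 to 0.24.

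The summed level of the 7 mevalonate genes was 426, 323 and 373 RPKM in the AKIT libraries and 237 and 224 RPKM in the E8 libraries. Every AKIT sum exceeded both E8 sums, and the order among the AKIT libraries was that of HMGCS1, the most abundant of the 7.

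Of the 11 enzymes from farnesyl diphosphate to cholesterol, 4 rose and 7 did not pass. SQLE, squalene epoxidase, was at 105, 84.5 and 80.2 RPKM in AKIT and at 59.9 and 49.2 RPKM in E8 (log2 difference 0.71 ± 0.15, limma adjusted p = 0.0193). LSS, lanosterol synthase, was at 46.0, 44.7 and 41.7 RPKM in AKIT and at 29.7 and 26.6 RPKM in E8 (0.63 ± 0.10, limma adjusted p = 0.00776). For both genes the groups were apart. CYP51A1, the demethylase of lanosterol, was at 78.8, 50.9 and 58.1 RPKM in AKIT and at 35.2 and 29.1 RPKM in E8 (0.92 ± 0.19, limma adjusted p = 0.0182), but did not pass without AKIT replicate 3. DHCR7, a reductase of the last steps, was at 82.1, 74.1 and 66.5 RPKM in AKIT and at 47.9 and 44.1 RPKM in E8 (0.67 ± 0.12, limma adjusted p = 0.0102). In the 4 genes that rose, AKIT replicate 1 had the highest level.

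MSMO1, a methylsterol oxidase downstream of CYP51A1, was at 119.8, 48.0 and 65.5 RPKM in AKIT and at 40.4 and 37.1 RPKM in E8. All AKIT libraries were above E8, with replicate 1 far above the other two. Its log2 difference of 0.88 ± 0.34 was close to that of CYP51A1 but did not pass (limma adjusted p = 0.107, 95% interval 0.09 to 1.68). NSDHL and HSD17B7, which act with MSMO1 in removing the methyl groups, behaved alike in order: NSDHL was at 20.4, 13.6 and 16.5 RPKM in AKIT and 12.1 and 10.9 RPKM in E8, and HSD17B7 at 6.62, 4.16 and 5.77 RPKM and 3.43 and 3.24 RPKM. Their log2 differences were 0.50 ± 0.17 and 0.57 ± 0.18 (limma adjusted p = 0.0769 and 0.0647). EBP, a sterol isomerase, was at 69.6, 59.97 and 62.2 RPKM in AKIT and 55.1 and 49.4 RPKM in E8 (0.29 ± 0.11, limma adjusted p = 0.104). These 4 genes had every AKIT library above both E8 libraries, and each passed without AKIT replicate 2.

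Other enzymes of this stretch differed little between the media. FDFT1, squalene synthase, the entry to the sterol branch and the most abundant of the 11 in E8, was at 170.0, 120.1 and 154 RPKM in AKIT and at 139 and 129.8 RPKM in E8. AKIT replicate 2 was thus below both E8 libraries and the groups overlapped (0.13 ± 0.15, 95% interval -0.24 to 0.49). TM7SF2, a sterol reductase, was at 14.2, 12.5 and 12.5 RPKM in AKIT and at 13.7 and 13.4 RPKM in E8 (-0.05 ± 0.10, 95% interval -0.29 to 0.19). SC5DL, the sterol C5 desaturase, was at 48.8 RPKM in AKIT replicate 1 and at 31.7 and 26.8 RPKM in the other AKIT libraries, around the 32.4 and 31.6 RPKM of E8. Its log2 difference was 0.11 ± 0.23, and -0.13 without AKIT replicate 1. The summed level of the 11 genes was 761, 544 and 590.0 RPKM in AKIT and 469 and 424 RPKM in E8.

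**Figure D2:**
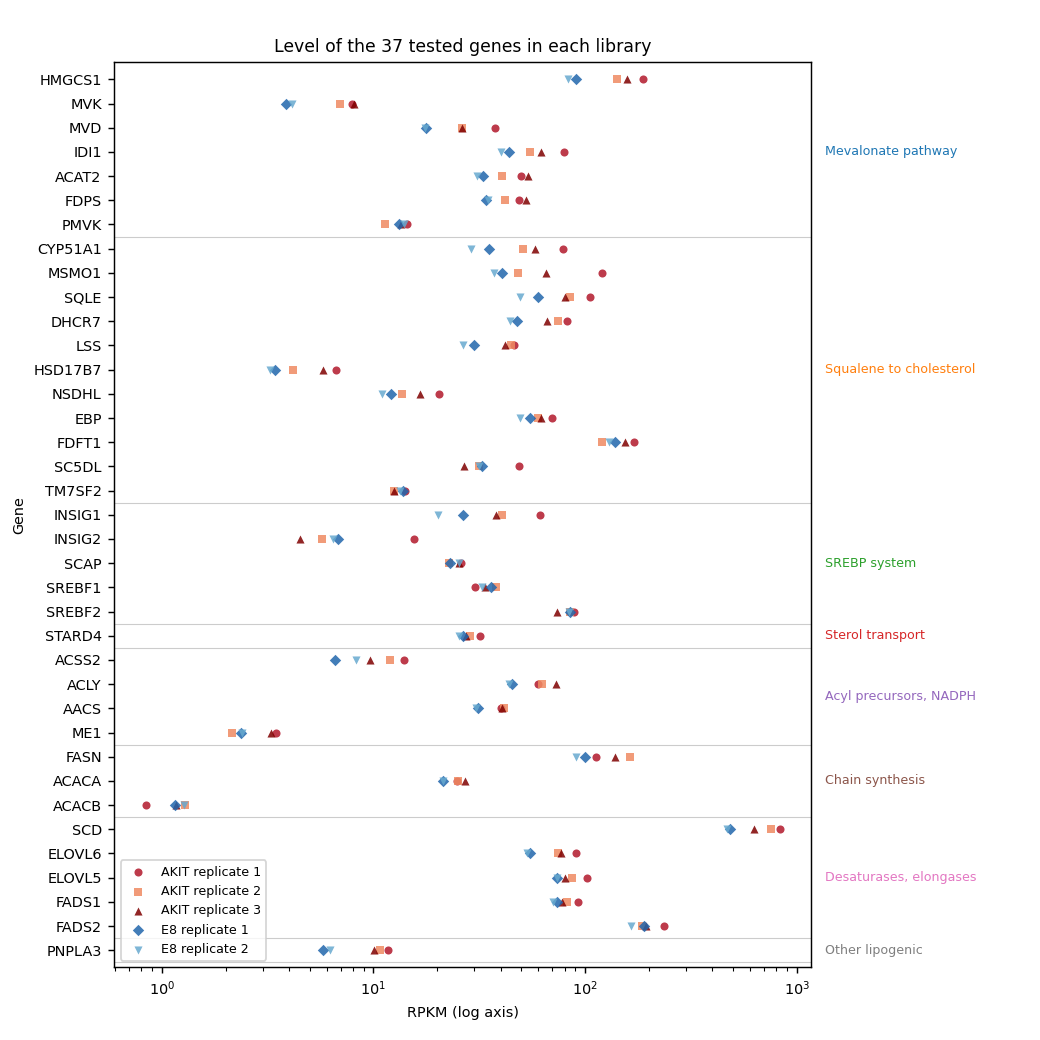
Level of each of the 37 tested genes in RPKM on a log axis, with a symbol for each of the 5 libraries, grouped by role. SCD is the most abundant, at 467 to 831 RPKM, and for genes such as HMGCS1, MVK and PNPLA3 the 3 AKIT symbols lie to the right of both E8 symbols.

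Of the 5 genes of the SREBP system, INSIG1 rose and the others did not pass. INSIG1, itself a target of SREBPs, was at 61.1, 40.4 and 38.0 RPKM in AKIT and at 26.5 and 20.1 RPKM in E8. All AKIT libraries were above E8, replicate 1 most. The log2 difference was 0.95 ± 0.22 (limma adjusted p = 0.0262), the largest of the 37 genes. INSIG2, its paralog, was at 15.6 RPKM in AKIT replicate 1, above both E8 libraries (6.77 and 6.46 RPKM), and at 5.74 and 4.51 RPKM in AKIT replicates 2 and 3, below them. Its log2 difference was 0.16 ± 0.43, and -0.32 without AKIT replicate 1, which was thus the library that set the sign.

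The transcripts of the SREBPs and of their escort differed by less than the spread between libraries. SREBF2, which encodes the SREBP tied most to sterol genes, was at 88.4, 84.7 and 73.9 RPKM in AKIT and at 85.4 and 83.7 RPKM in E8 (log2 difference -0.04 ± 0.11, 95% interval -0.29 to 0.21). SREBF1, whose products act most on fatty acid genes, was at 30.3, 37.8 and 33.7 RPKM in AKIT and at 36.0 and 32.7 RPKM in E8 (-0.02 ± 0.12, 95% interval -0.30 to 0.26). SCAP was at 26.0, 22.8 and 25.4 RPKM in AKIT and at 22.9 and 25.4 RPKM in E8 (0.03 ± 0.10, 95% interval -0.21 to 0.28). For all 3 genes the groups overlapped. RNA levels do not measure the cleavage of the proteins.

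Of the 2 sterol transport genes, STARD4, a cytosolic sterol carrier, was at 31.9, 28.7 and 27.3 RPKM in AKIT and at 26.5 and 25.5 RPKM in E8 (log2 difference 0.17 ± 0.10, limma adjusted p = 0.289). The groups did not overlap, but the difference did not pass. NPC1L1, the sterol uptake protein of the intestine, did not reach the filter, with 4, 8 and 3 reads in AKIT and 4 and 0 reads in E8. By counting error alone, 0 reads could stand for as many as 3.

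Of the 4 genes that supply acetyl-CoA, acetoacetyl-CoA and NADPH, 3 rose. ACLY, which splits cytosolic citrate into acetyl-CoA, was at 60.1, 62.5 and 73.1 RPKM in AKIT and at 45.4 and 43.9 RPKM in E8 (log2 difference 0.53 ± 0.11, limma adjusted p = 0.0195). ACSS2, which makes acetyl-CoA from acetate, was at 14.0, 11.95 and 9.67 RPKM in AKIT and at 6.58 and 8.29 RPKM in E8. The gap between the lowest AKIT and the highest E8 library was small, and its call (0.60 ± 0.17, limma adjusted p = 0.0476) ended without AKIT replicate 1 or 2. AACS, acetoacetyl-CoA synthetase, was at 39.9, 41.6 and 40.4 RPKM in AKIT and at 31.3 and 30.6 RPKM in E8. AACS had a small difference with little spread (0.38 ± 0.09, limma adjusted p = 0.0245), and its call ended without AKIT replicate 3. ME1, the cytosolic malic enzyme, a source of NADPH, was at 3.46, 2.14 and 3.28 RPKM in AKIT and at 2.37 and 2.40 RPKM in E8 (0.21 ± 0.18), with AKIT replicate 2 below both E8 libraries.

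The 3 genes that build the chain did not pass. FASN, fatty acid synthase, was at 113, 163 and 139 RPKM in AKIT and at 100.5 and 90.4 RPKM in E8 (log2 difference 0.51 ± 0.16, limma adjusted p = 0.0636). All AKIT libraries were above E8, with replicate 2 the highest, the reverse of the order seen in MSMO1. FASN passed without AKIT replicate 1 and without AKIT replicate 2. ACACA, the cytosolic acetyl-CoA carboxylase that makes malonyl-CoA, was at 24.8, 25.2 and 27.1 RPKM in AKIT and at 21.4 and 21.3 RPKM in E8 (0.26 ± 0.09, limma adjusted p = 0.0944). ACACB, its mitochondrial-membrane paralog, was far less abundant, at 0.842, 1.29 and 1.17 RPKM in AKIT and 1.15 and 1.27 RPKM in E8. Its groups overlapped (-0.08 ± 0.15), and the sign turned to 0.05 with quantile normalization.

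Among the 5 desaturases and elongases, SCD and ELOVL6 rose. SCD, the stearoyl-CoA desaturase, was the most abundant of all members, at percentile 99.8 of the mean E8 level among genes above 0. It was at 831, 759.9 and 628 RPKM in AKIT and at 483 and 467 RPKM in E8, with no overlap (log2 difference 0.63 ± 0.14, limma adjusted p = 0.0262), and it did not pass without AKIT replicate 1. ELOVL6, the elongase that supplies its substrate, was at 90.8, 74.5 and 77.0 RPKM in AKIT and at 55.1 and 52.9 RPKM in E8 (0.57 ± 0.11, limma adjusted p = 0.0167). The genes that act on polyunsaturated chains had smaller differences, and none of them passed. ELOVL5 was at 102, 86.6 and 80.6 RPKM in AKIT and 73.7 and 73.9 RPKM in E8 (0.27 ± 0.12), and FADS1, the delta-5 desaturase, at 92.5, 82.5 and 78.2 RPKM and 73.6 and 70.3 RPKM (0.22 ± 0.10). FADS2, the delta-6 desaturase, was at 236, 186 and 194 RPKM in AKIT and at 189.8 and 165 RPKM in E8 (0.21 ± 0.14). For ELOVL5 and FADS1 the AKIT libraries lay above E8, and for FADS2 the groups overlapped.

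PNPLA3, a lipase-family protein of lipid droplets, rose from 5.75 and 6.26 RPKM in E8 to 11.7, 10.8 and 10.1 RPKM in AKIT. The libraries of each medium lay close together (log2 difference 0.76 ± 0.11, limma adjusted p = 0.00619, ratio of means 1.80), the largest difference among the fatty acid genes. THRSP, a lipogenic protein of liver and fat, did not reach the filter, with 1, 5 and 2 reads in AKIT and 0 in both E8 libraries. In all, 6 of the 13 tested fatty acid genes and 11 of the 24 tested sterol genes rose, with median log2 differences of 0.38 and 0.53. Whether the groups of genes differed from each other was not tested.

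The AKIT libraries differed among themselves. AKIT replicate 1 was the highest AKIT library for 20 of the 24 sterol genes, beside 30.8% of all genes tested, and for 11 of 11 enzymes from squalene synthase onward. AKIT replicate 2 was the lowest for 12 of the 18 enzymes of sterol synthesis, beside 5925 of the 14776 genes tested. The median of the 18 enzymes over the mean of E8 was 0.80 in AKIT replicate 1, 0.32 in replicate 2 and 0.55 in replicate 3 on the log2(RPKM + 1) scale, where the medians of all genes were between -0.02 and -0.01. The median of the 13 fatty acid genes differed less among these libraries, at 0.42, 0.42 and 0.35, but their roles went different ways. AKIT replicate 1 was the highest AKIT library for all 5 desaturases and elongases (medians 0.47, 0.23 and 0.13). It was the lowest for all 3 genes that build the chain (0.21, 0.23 and 0.33). In all, it was the highest for 8 of the 13, beside 30.8% of all genes tested. Without AKIT replicate 2, 15 of the 24 sterol genes rose, beside 14.5% of all genes tested. AKIT replicate 1 was also the highest AKIT library for 6 of the 8 tested fibroblast and mesenchyme markers and 6 of the 7 tested trophoblast and amnion markers, COL3A1, LUM and HAND1 among them. Their part in the sterol values of that library was not tested.

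**Figure D3:**
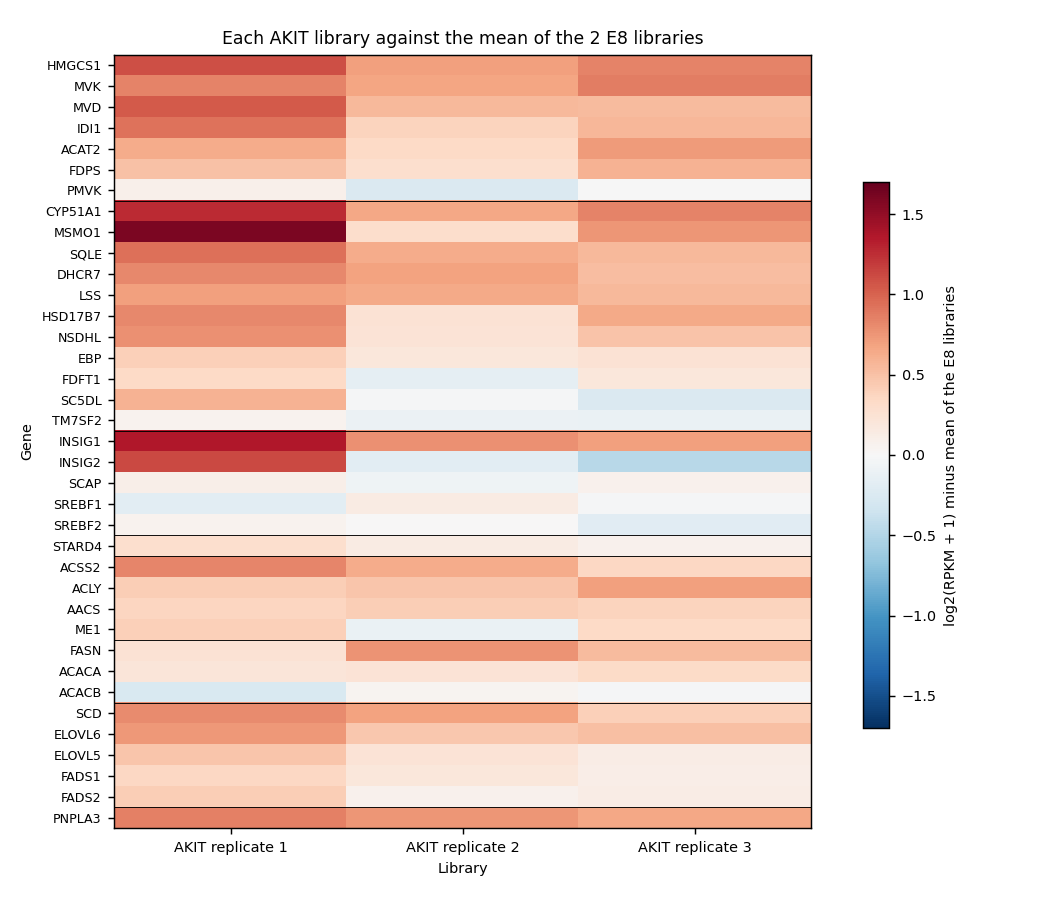
Colour map of the 37 tested genes (rows, by role) in the 3 AKIT libraries (columns), each as its log2(RPKM + 1) value minus the mean of the 2 E8 libraries. MSMO1, INSIG1 and INSIG2 are darkest in AKIT replicate 1 (1.61, 1.37 and 1.12), and FASN is highest in AKIT replicate 2 (0.76).

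The position of reads limits some values. In GENCODE release 29, 6 of the 39 genes have named pseudogenes (FDPS, CYP51A1, HSD17B7, AACS, SCD and FADS2), and how reads of such copies were counted is not known, so that their levels are uncertain. Exons of 14 genes overlap a gene on the opposite strand, such as ACAT2 with TCP1, MVK with MMAB and FADS1 with FADS2, and exons of 4 overlap a gene on the same strand, such as TM7SF2 with VPS51. Without strand, reads of such pairs cannot be told apart.

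Beyond the members, other genes of lipid metabolism went both ways. Of 10 tested genes of the liver X receptors (LXRs, sterol sensors that promote export) and cholesterol efflux, 4 fell and 0 rose, beside 11.7% and 8.22% of all genes tested, with a median log2 difference of -0.48. CH25H, which makes 25-hydroxycholesterol, was at 1.997, 1.97 and 1.42 RPKM in AKIT and at 10.5 and 8.85 RPKM in E8 (-1.93 ± 0.15, limma adjusted p = 0.000917). This was the largest difference in any of the lipid lists, and its groups lay far apart. ABCG1, a sterol exporter, was at 1.05, 1.05 and 1.72 RPKM in AKIT and 3.57 and 2.95 RPKM in E8 (-0.92 ± 0.17), and CYP27A1, a sterol 27-hydroxylase, at 2.78, 2.66 and 1.19 RPKM and 4.57 and 5.26 RPKM (-0.92 ± 0.25). In 8 of the 10 genes every AKIT library was below both E8 libraries, beside 28.6% of all genes. Without AKIT replicate 1, 2 of the 10 fell (8.5% of all genes), and 6 without AKIT replicate 3 (7.55%). The count was 1 without E8 replicate 1 (1.72%) and 1 without E8 replicate 2 (1.7%).

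Of 16 genes for the processing of SREBPs and the sterol-regulated degradation of the pathway's enzymes, 1 rose and 1 fell (6.25% each way), no more than the 8.22% and 11.7% of all genes, with a median of -0.03. C12orf49, a partner of the site-1 protease, rose from 29.4 and 30.1 RPKM in E8 to 44.7, 39.8 and 39.7 RPKM in AKIT (log2 difference 0.46 ± 0.10). RNF139, a ubiquitin ligase of sterol regulation, fell from 22.0 and 24.2 to 16.4, 18.0 and 18.4 RPKM (-0.37 ± 0.10, limma adjusted p = 0.0448). In this list 0 genes fell without AKIT replicate 1 or 3, with no filter, without the trend or with a replicate block. Of 19 genes of intracellular sterol transport and esters, 3 rose and 1 fell (median -0.07). NPC1, which moves cholesterol out of lysosomes, rose from 6.035 and 6.50 RPKM to 11.2, 10.0 and 10.04 RPKM (0.65 ± 0.11, limma adjusted p = 0.00937), and OSBPL8 by 0.41 ± 0.09, while GRAMD3 fell (-0.57 ± 0.15). Of 16 genes of the isoprenoid branch, which uses farnesyl diphosphate for protein prenylation, dolichol and ubiquinone, 3 rose and 1 fell (median 0.17). ZMPSTE24, a protease of prenylated proteins, rose by 0.71 ± 0.12, DPM1, a dolichol-linked mannose synthase, by 0.69 ± 0.14 and NUS1, a subunit of dolichol synthesis, by 0.52 ± 0.12. Named after their values were seen, GGPS1, which makes geranylgeranyl diphosphate, fell (-0.36 ± 0.09) and GRAMD1A, a sterol carrier, rose (0.38 ± 0.09). In the isoprenoid list, 0 genes fell without AKIT replicate 1 or 3, without the trend or with a replicate block.

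Across the fatty acid lists some genes rose and some fell, where 8.22% of all genes tested rose and 11.7% fell. Of 13 other elongases, desaturases and chain reductases, 2 rose and 0 fell (median -0.02), namely HSD17B12, the ketoacyl reductase of elongation (0.57 ± 0.15), and ELOVL1 (0.41 ± 0.10). Of 12 genes of citrate and NADPH supply, 3 rose and 1 fell (median 0.15). MTHFD1, of folate metabolism, rose by 0.64 ± 0.12 and IDH1, the cytosolic isocitrate dehydrogenase, by 0.51 ± 0.10, while its mitochondrial paralog IDH2 fell (-0.60 ± 0.10). ME2, the mitochondrial malic enzyme, also named after its value was seen, rose by 0.39 ± 0.11. Of 9 genes of mitochondrial fatty acid synthesis, 1 rose (NDUFAB1, the acyl carrier protein, 0.82 ± 0.23, limma adjusted p = 0.0472) and 1 fell (LIPT2, -0.71 ± 0.16), with a median of 0.23. NDUFAB1 did not pass without AKIT replicate 1 or 3, without the trend, with no filter or with voom. Without AKIT replicate 1, 0 genes of the elongase and mitochondrial lists passed, and 1 elongase gene passed without AKIT replicate 3. Without AKIT replicate 2, where 14.5% of all genes rose and 17.8% fell, 5 genes of intracellular sterol transport rose and 3 fell. In the fits with a single E8 library, 0 genes of the SREBP processing, sterol transport, isoprenoid, elongase, citrate and mitochondrial lists passed.

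**Figure D4:**
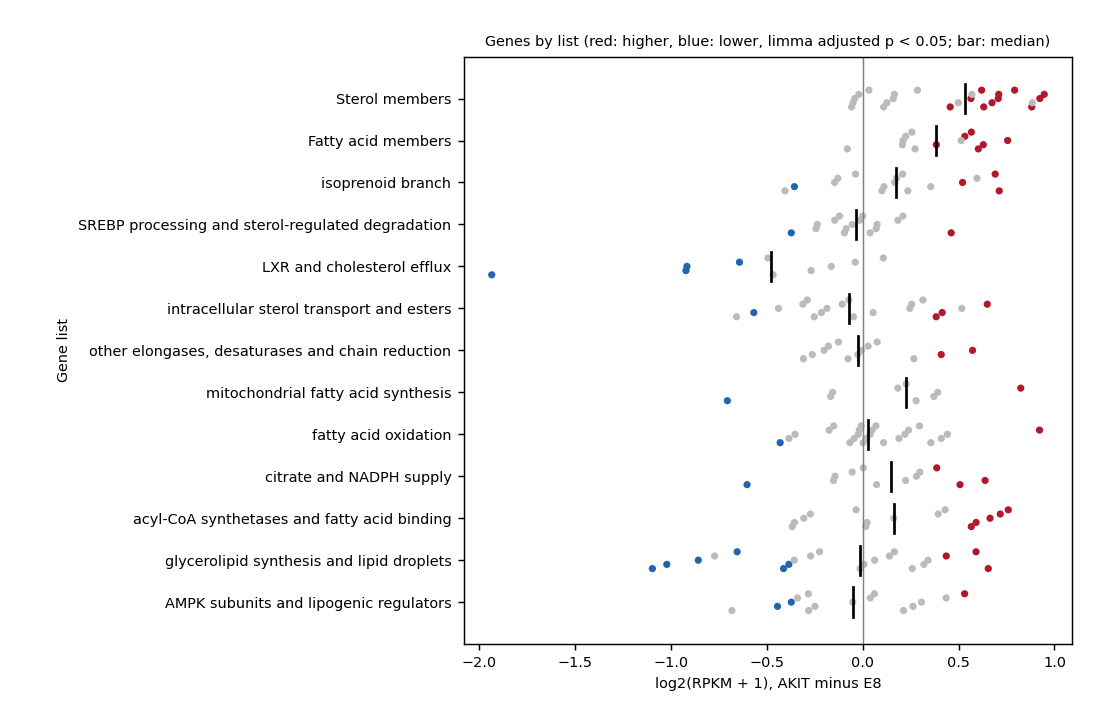
Log2(RPKM + 1) value of AKIT minus that of E8 (x axis) of each tested gene in the sterol and fatty acid groups and in 11 other lipid lists (y axis). Red points rose, blue points fell, grey points did not pass, and black bars are medians, from -0.48 for the LXR and efflux list to 0.53 for the sterol genes.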

How the data were processed

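Per the labels' protocols, KhES-1 total RNA went through a column kit and then into standard Illumina libraries. The authors deposited 1 table of RPKM values per gene symbol, with hg19 and GRCh37 as builds per the submitters' processing notes. For aligner, counting tool, annotation and strand: not given in the sources used here. Columns were matched to samples by title.

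Reads were recovered from the steps of RPKM within genes (tolerance 0.02 reads, 100% of 19892 genes above 0). That share overstates the recovery. Some genes of very low RPKM, such as SOAT2, CD36 and SERPINA1, came out at 0 reads in every library and still counted. E8 replicates 1 and 2 differed by a chi-square of 3.41 per gene and AKIT pairs by 17.5 to 33.3. Each library counted as 1 replicate, though these values do not show that the libraries came from separate cultures. The fit assumed the same variance in both media, although the E8 pair lay closer together.

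Log2(RPKM + 1) values were fitted in limma 3.58.1 (R 4.3.3; trend), minimum mean 0.5 RPKM, two-sided, Benjamini-Hochberg adjusted over all genes at 0.05, with no block, planned for 3 against 3 libraries and run on 3 against 2. It was tested on simulated data. Every member was named. Of each other list up to 3 called genes by size, or else the gene with the smallest p, were open to naming. One gene's own result is not reported here. The members and lists were chosen with earlier results of these data known. Alternatives were other pseudocounts, filters, scalings and weights, a replicate block, each library left out and, chosen after seeing the data, voom on the recovered reads.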

Additional observations from a re-analysis of the deposited data

How the results depend on the processing

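With 1 library left out, sterol genes that rose numbered 0 to 15 (11 with all libraries), fatty acid genes 0 to 6 (6), all genes 142 to 2132 (1214), and all genes that fell 250 to 2619 (1736). Array weights gave 2269 and 2740 genes higher and lower in all. The fatty acid median (0.38) was 0.33 with no filter and 0.45 with a minimum of 2 RPKM, which respectively added THRSP and removed ACACB. With the replicate number as a block, which leaves AKIT replicate 3 without a partner and so without weight in the difference, 492 genes rose and 824 fell, and 8 sterol and 3 fatty acid genes were among those that rose. The labels do not say that the numbers mark a shared source, and deviations of same-numbered libraries correlated at -0.001 and 0.025. Signs turned only in genes that did not pass. With a library left out, the lowest and highest values were -0.127 and 0.035 (PMVK), -0.133 and 0.289 (SC5DL), -0.0985 and 0.0562 (SREBF1), -0.0941 and 0.0334 (SREBF2), -0.0377 and 0.103 (SCAP), -0.321 and 0.473 (INSIG2), and -0.145 and 0.0115 (ACACB). SREBF2 also turned with the block (0.0334) and ACACB with quantile normalization (0.0508). The cause was not tested. Of the called members, HMGCS1, MVK, MVD, SQLE, LSS, DHCR7, ELOVL6 and PNPLA3 passed in 13 of 15 alternatives and missed in the fits with a single E8 library, where that library is assumed to vary like the AKIT libraries. Reads per library ranged from 80 (HSD17B7) to 105603 (SCD) in tested members.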

Other observations

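Over all genes tested, 8.22% rose and 11.7% fell. Of 21 tested genes of glycerolipid synthesis and lipid droplets, 3 rose and 6 fell (PNPLA2, AGPAT3 and DGAT2 by the largest amounts), with a median log2 difference of -0.01. PNPLA2, the triglyceride lipase of droplets, was at 11.5, 13.8 and 15.5 RPKM in AKIT replicates 1 to 3 and at 29.4 and 27.5 RPKM in E8 replicates 1 and 2 (-1.02 ± 0.14, limma adjusted p = 0.00423), opposite in direction to its relative PNPLA3. AGPAT3, an acyltransferase, fell from 4.44 and 4.20 RPKM to 1.96, 0.982 and 1.62 RPKM (-1.10 ± 0.19), and DGAT2, which makes triglyceride, from 3.05 and 4.09 RPKM to 1.59, 1.30 and 1.64 RPKM (-0.86 ± 0.15). In all 3 genes the groups were apart. AGPAT2, GPAM and PLIN2 rose, and were picked for mention with their values in view.

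Of 15 tested acyl-CoA synthetases and fatty acid binding genes, 5 rose and 0 fell (median 0.16). ACSL4, which activates polyunsaturated fatty acids, rose by 0.76 ± 0.09, FABP7, a fatty acid binding protein, by 0.72 ± 0.18 and SLC27A4, a fatty acid transport protein, by 0.66 ± 0.14 on the log2(RPKM + 1) scale. FABP3 (0.59 ± 0.15) and FABP5 (0.57 ± 0.13), named after their values were seen, rose too. Of 24 genes of fatty acid oxidation, 1 rose and 1 fell (median 0.03), below the shares of all genes. CPT1A, which admits long chains to mitochondria, rose from 4.13 and 3.92 RPKM in E8 to 9.71, 6.29 and 10.03 RPKM in AKIT (0.92 ± 0.19, limma adjusted p = 0.0195). ACADS fell (-0.43 ± 0.12, limma adjusted p = 0.0490). With other pseudocounts, filters or scalings, the replicate block or voom, 0 of the 24 genes fell. Without AKIT replicate 2, 5 of these genes rose and 3 fell, beside the 14.5% and 17.8% of all genes in that fit, and without AKIT replicate 1 or 3, 0 did. Of 15 AMPK subunits and lipogenic regulators, 1 rose (PRKAB2, 0.53 ± 0.11) and 2 fell (MID1IP1, a partner of acetyl-CoA carboxylase, -0.44 ± 0.10, and PRKAB1, -0.37 ± 0.10), again near the shares of all genes. Without AKIT replicate 2, 5 genes rose and 9 fell in the glycerolipid list, 7 and 2 in the acyl-CoA list and 2 and 4 in the AMPK list. Without AKIT replicate 1 (5.35% and 8.5% of all genes) the counts were 2 and 4, 2 and 0, and 0 and 0, and without AKIT replicate 3 (4.62% and 7.55%) they were 2 and 6, 3 and 0, and 1 and 0. With voom, 2 genes of the acyl-CoA list rose. In the fits with a single E8 library, 0 genes of these 4 lists passed in limma.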
